A study of Homo sapiens with 36 samples.

Results

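Anti-HA CUT&Tag of HA-GATA2 was compared here with anti-HA CUT&Tag of HA-GATA2(T354M), in 4 libraries of each, out of 28 libraries of the series with a peak list and 36 libraries described. The 8 libraries were chosen by their titles: GATA2 low HUDEP-2 cells, lentiviral HA-GATA2 or lentiviral HA-GATA2(T354M), HA antibody. HUDEP-2 is an immortalized human erythroid progenitor line whose growth depends on doxycycline-driven viral genes, and all cells were kept in medium with Epo, SCF, doxycycline and dexamethasone. All 8 libraries have the genotype label GATA2+/-, so 1 native GATA2 allele remains in both arms. The lentivirally infected cells were sorted for GFP before the assay, and 4 GATA2 low libraries with an empty vector and the same Rabbit anti-HA antibody serve as the background. Native GATA2 was read from anti-GATA2 CUT&Tag of empty vector cells, in 4 libraries of wild-type HUDEP-2 and 4 of GATA2 low HUDEP-2, and anti-GATA2 was also read in 4 libraries of GATA2 low cells with each GATA2 vector. Replicate 1 of the GATA2 low empty vector anti-GATA2 libraries has a wild-type genotype label beside its GATA2 low title. It was grouped by the title, and results that rest on it are also given without it. Neither the promoter of the vectors nor the number of clones behind the GATA2 low line is given in the sources used here, and the amounts of the tagged proteins were not analysed here. The labels do not say that replicates came from separate cultures, so the p-values speak only of how these libraries varied, and that variation may be technical.

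GATA2 is a zinc finger transcription factor that binds GATA sequences in DNA and is needed for blood stem and progenitor cells. In erythroid maturation GATA1 takes over many of its sites, and both factors work with TAL1, LYL1, LMO2 and LDB1 and with the cofactors of the FOG family. T354M replaces a threonine with methionine in the zinc finger that contacts DNA, and inherited changes of this kind predispose to myelodysplasia and acute myeloid leukaemia. CUT&Tag uses an antibody to tether a transposase to chromatin, so an anti-HA peak marks where the tagged protein lay, and native GATA2 is not its target.

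The peaks of both proteins included promoters of red cell genes. Promoter sequences of 250 bases upstream of the start, from RefSeq (GRCh38.p14), are shown for 3 genes whose promoter site held a peak in all 8 libraries and for 3 whose site held one in 4 of 4 HA-GATA2 and 0 of 4 HA-GATA2(T354M) libraries, to show what lies under peaks of either kind. Capitals mark the letters AGATAA or AGATAG, and TGATAA or TGATAG, on either strand. Sites in all 8 libraries covered the promoters of EPB42 (chr15:43221019-43221268, minus strand), a protein of the red cell membrane skeleton, LYL1 (chr19:13102859-13103108, minus strand), a partner of GATA factors, and RHEX (chr1:206083345-206083594, plus strand), a regulator of erythroid cell expansion.
EPB42: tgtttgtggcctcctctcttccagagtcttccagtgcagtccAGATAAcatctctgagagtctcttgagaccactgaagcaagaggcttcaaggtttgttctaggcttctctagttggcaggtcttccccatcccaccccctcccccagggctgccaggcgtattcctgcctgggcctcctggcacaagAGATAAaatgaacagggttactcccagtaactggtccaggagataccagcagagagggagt
LYL1: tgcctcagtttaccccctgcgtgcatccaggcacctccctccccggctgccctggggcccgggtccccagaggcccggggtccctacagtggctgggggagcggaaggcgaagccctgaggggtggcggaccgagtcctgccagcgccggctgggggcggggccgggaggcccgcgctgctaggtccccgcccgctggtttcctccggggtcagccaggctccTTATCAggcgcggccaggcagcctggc
RHEX: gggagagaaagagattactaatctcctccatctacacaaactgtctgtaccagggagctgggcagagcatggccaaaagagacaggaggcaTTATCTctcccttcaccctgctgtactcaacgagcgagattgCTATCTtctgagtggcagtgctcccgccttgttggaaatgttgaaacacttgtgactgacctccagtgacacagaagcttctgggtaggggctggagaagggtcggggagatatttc
Sites with HA-GATA2 peaks alone covered the promoters of CPOX (chr3:98593612-98593861, minus strand), an enzyme of heme synthesis, SPTB (chr14:64879908-64880157, minus strand), the beta chain of red cell spectrin, and GYPB (chr4:144019381-144019630, minus strand), which encodes glycophorin B.
CPOX: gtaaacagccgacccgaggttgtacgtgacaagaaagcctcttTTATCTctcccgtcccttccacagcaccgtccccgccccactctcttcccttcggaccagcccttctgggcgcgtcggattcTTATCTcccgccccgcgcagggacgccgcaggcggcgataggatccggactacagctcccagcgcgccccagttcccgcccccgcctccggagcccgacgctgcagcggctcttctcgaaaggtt
SPTB: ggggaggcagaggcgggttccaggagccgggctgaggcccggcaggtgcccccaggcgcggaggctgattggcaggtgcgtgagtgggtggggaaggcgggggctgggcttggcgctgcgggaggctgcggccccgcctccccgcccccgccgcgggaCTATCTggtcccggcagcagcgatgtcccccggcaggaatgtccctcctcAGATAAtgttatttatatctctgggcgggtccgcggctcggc
GYPB: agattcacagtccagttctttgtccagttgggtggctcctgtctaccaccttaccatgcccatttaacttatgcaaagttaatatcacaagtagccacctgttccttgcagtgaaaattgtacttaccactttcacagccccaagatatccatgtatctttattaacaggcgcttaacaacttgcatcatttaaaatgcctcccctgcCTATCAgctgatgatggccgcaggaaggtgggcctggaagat
EPB42, RHEX, CPOX and SPTB each hold 2 of these GATA words, and LYL1 and GYPB hold 1. Other promoters with peaks of either kind held none, as given below. GYPB has near-identical copies in the genome, and reads can be placed on any of them.

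The deposited fold enrichment of a peak, the authors' value, sets the fragments at its summit against the local background and describes that peak within its own list, so folds stand side by side below and are not compared between libraries. At the EPB42 promoter site (chr15:43220366-43221932) it was 23.7, 24.5, 34.7 and 16.2 in HA-GATA2 replicates 1 to 4 and 7.59, 4.2, 6.73 and 10.4 in HA-GATA2(T354M) replicates 1 to 4. At the RHEX promoter site (chr1:206082714-206083847) it was 40.4, 42.4, 51.7 and 26.6 with HA-GATA2 and 13.4, 13.5, 17.4 and 17.9 with HA-GATA2(T354M). At the CPOX promoter site (chr3:98593389-98594133) it was 8.44, 7.76, 11.9 and 6.39 with HA-GATA2, and no HA-GATA2(T354M) library had a peak. Within the lists, ranked by −log10 q so that the 100th percentile is the strongest peak, the EPB42 site stood at a mean percentile of 98.8 with HA-GATA2 and 54.2 with HA-GATA2(T354M), the RHEX site at 97.6 and 83.9, and the CPOX site at 57.8 with HA-GATA2. Among the promoters with a peak summit in 4 of 4 HA-GATA2 and 0 of 4 HA-GATA2(T354M) libraries, 8 of 11 held such a word, and among those with a summit in all 8 libraries 2 of 3 did. Of the 11, BCAT1, CAT and LAPTM4A held none, and GYPB and GYPE, with near-identical promoter sequences, both count among the 8. The 3 were EPB42, LYL1 and the histone gene H2BC12, which held no word and had summits in 2 empty vector libraries. RHEX is not among the 3, since its promoter held the summit in 3 HA-GATA2(T354M) libraries. The share was 99 of 369 (26.8%) among promoters with a summit in any of the 8 libraries and 2786 of 15812 (17.6%) over all promoters of the table, with chromosome 8 not analysed here. A match is a description of these letters and not a binding site.

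HA-GATA2 libraries held several times more peaks than HA-GATA2(T354M) libraries. Replicates 1 to 4 had 4073, 4942, 6065 and 1912 peaks with HA-GATA2 on chromosomes 1 to 22 and X. With HA-GATA2(T354M) they had 426, 480, 744 and 730. The empty vector libraries had 6, 5, 1 and 4 peaks, far below both tagged proteins. The groups did not overlap, and the mean number was 4248 ± 1758 (SD, n = 4) against 595 ± 166 (SD, n = 4). The ratio of geometric means was 6.76 (exact permutation p = 0.0286, the smallest that 4 against 4 libraries can give, two-sided; 0.0514 after Benjamini-Hochberg adjustment over 9 library-level measures, which misses 0.05). The lowest background per list, which tracks depth, was 0.375 to 0.438 fragments with HA-GATA2 and 0.356 to 0.411 with HA-GATA2(T354M). The fragments and background of each peak were also scaled to the lowest of these depths. After peaks that then missed the weakest p of their list were dropped, the ratio was 6.70.

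**Figure D1:**
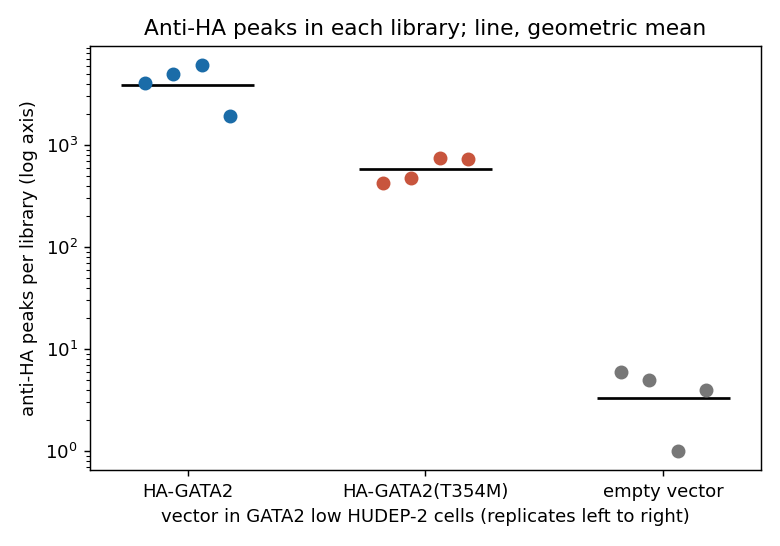
Anti-HA peaks per library (log axis) in GATA2 low HUDEP-2 cells with each vector; each point is 1 library, in replicate order from left to right, and the line is the geometric mean of the group. The 4 HA-GATA2 libraries (1912 to 6065 peaks) all lie above the 4 HA-GATA2(T354M) libraries (426 to 744), which lie above the empty vector libraries (1 to 6).

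HA-GATA2(T354M) peaks lay almost wholly inside the set of HA-GATA2 sites. Peaks that overlap by at least 1 bp were merged into sites, and 6944 sites held a peak in any of the 8 libraries, 6913 of them in an HA-GATA2 library and 1077 in an HA-GATA2(T354M) library. Both groups held 1046 sites, which is 97.1% of the HA-GATA2(T354M) sites and 15.1% of the HA-GATA2 sites. Of the sites of each HA-GATA2(T354M) library, 99.3%, 97.5%, 98.1% and 98.8% (replicates 1 to 4) held a peak in some HA-GATA2 library. The HA-GATA2 set is much larger, which raises such shares. In some other HA-GATA2(T354M) library the shares were 91.5%, 84.4%, 77.2% and 77.3%. Of the sites of each HA-GATA2 library, 24.8%, 20.9%, 17.2% and 43.2% held a peak in some HA-GATA2(T354M) library, the highest share being that of the shortest list, replicate 4. Of the 246 sites held by all 4 HA-GATA2(T354M) libraries, 232 (94.3%, 95% Wilson interval 90.7% to 96.6%, counting error only) were held by all 4 HA-GATA2 libraries. With every list cut to the same length that share was 73.5%.

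The reverse pattern was common. All 4 HA-GATA2 and none of the HA-GATA2(T354M) libraries held 942 sites, 13.6% of the 6944, and no site had the opposite pattern of 4 of 4 HA-GATA2(T354M) and 0 of 4 HA-GATA2. All 8 libraries held 232 sites (3.34%). In Fisher's exact test per site with Benjamini-Hochberg adjustment over the 1059 sites that exactly 4 of the 8 libraries held, the only ones that can pass, the 942 sites (89% of the 1059) had an adjusted p of 0.0321. Adjusted over all 6944 sites the value was 0.211, and none passed, with 942 at an unadjusted p of 0.0286. Without HA-GATA2 replicate 4, the library with fewest HA-GATA2 peaks, the count was 2337, and without any 1 of the HA-GATA2(T354M) libraries it was 962 to 1054 but none passed the adjustment, which then ran over a wider set of sites.

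**Figure D2:**
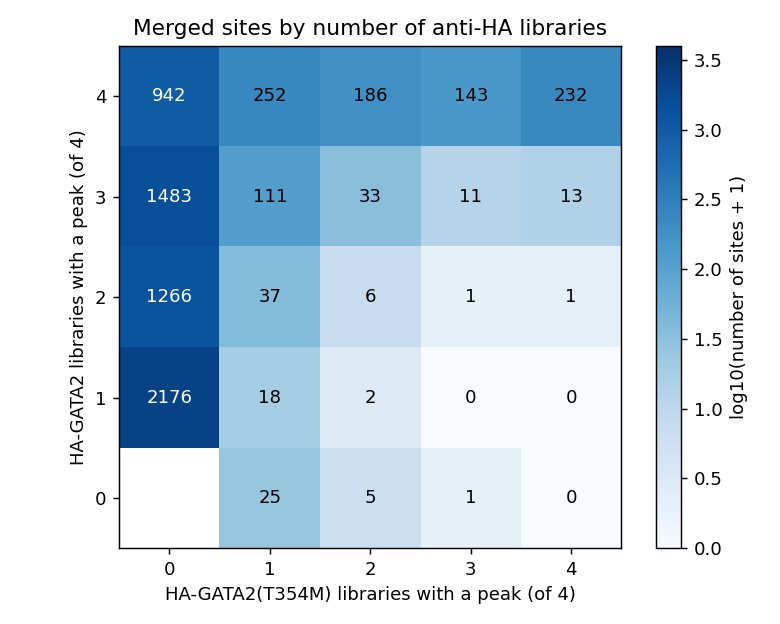
Number of merged sites by the number of HA-GATA2 libraries (vertical, 0 to 4) and HA-GATA2(T354M) libraries (horizontal, 0 to 4) with an anti-HA peak; darker squares hold more sites on a log scale. The left column, without HA-GATA2(T354M) peaks, holds most sites, and the bottom row, without HA-GATA2 peaks, holds 25, 5, 1 and 0.

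Which HA-GATA2 sites also held HA-GATA2(T354M) followed their rank. Among the 1755 sites held by all 4 HA-GATA2 libraries, the median HA-GATA2 percentile was 61.5 at the 942 sites without a HA-GATA2(T354M) peak. It was 73.4, 82.7 and 86.9 at sites with a peak in 1, 2 and 3 HA-GATA2(T354M) libraries and 94.3 at the 232 sites with a peak in all 4. In the lowest well-filled bin, percentiles 40 to 50, 84.1% of 176 sites had no HA-GATA2(T354M) peak. In the top bin, percentiles 90 to 100, 10.5% of 324 sites had none and 52.8% had one in all 4 libraries. Rank did not sort the sites fully, since sites without HA-GATA2(T354M) reached a percentile of 97.3 and sites in all 8 libraries went down to 20.3.

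**Figure D3:**
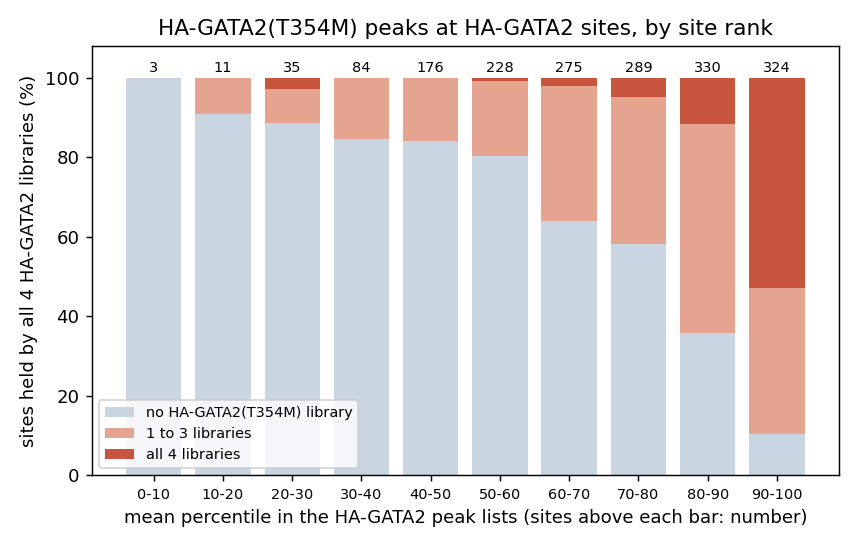
Sites held by all 4 HA-GATA2 libraries, by their mean percentile in the HA-GATA2 lists (horizontal, number of sites above each bar), with the percent that had an anti-HA peak in no, 1 to 3 or all 4 HA-GATA2(T354M) libraries (vertical). The share without HA-GATA2(T354M) falls from 84.1% at percentiles 40 to 50 to 10.5% at 90 to 100.

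Of the 324 sites in the top HA-GATA2 bin, 52.8% were shared with all 4 HA-GATA2(T354M) libraries. The sites named here were picked from the 232 held by all 8 libraries, so their sharing is not a result. The site with the highest HA-GATA2(T354M) rank (chr8:105520079-105521301) lay inside ZFPM2, which encodes FOG2, a GATA cofactor. Its fold was 38.6, 40.0, 48 and 25.4 in HA-GATA2 replicates 1 to 4 and 16.7, 14.2, 19.6 and 19.5 in HA-GATA2(T354M) replicates 1 to 4, and its mean percentile was above 99 in both groups. A site inside HDC, the histidine decarboxylase gene of mast cells and basophils (chr15:50260142-50261853), had folds of 28.4, 37.1, 40.4 and 17.3 against 13.5, 21.1, 18.8 and 13.5. The HDC site stood at a mean percentile of 99.7 in the HA-GATA2 lists and 99.4 in the HA-GATA2(T354M) lists, so it was near the top of both. Others of the 10 highest shared sites lay nearest CIBAR1, OR10V1, PRKAB1, MTSS1, PDZK1IP1, SMCO1 and TNFAIP8.

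Among the 942 sites with HA-GATA2 alone, the highest rank was that of a site inside MDGA1 (chr6:37666910-37668411), with folds of 18.1, 19.8, 24.4 and 15.2 in replicates 1 to 4. The next lay 84435 bp from PIK3R1, the regulatory subunit of phosphoinositide 3-kinase (chr5:68385406-68386649), with folds of 22.8, 26.9, 36.4 and 13.7. A site 26307 bp from GFI1, a repressor of myeloid and stem cell programmes (chr1:92446260-92447292), had folds of 26.4, 29.6, 28.5 and 19.0. These 3 sites were high in every HA-GATA2 library, at percentiles of 92.5 or more, and had a peak in no HA-GATA2(T354M) library with anti-HA. The anti-GATA2 antibody, which also sees native GATA2, found each in 4 of 4 libraries of HA-GATA2(T354M) cells. In GATA2 low empty vector cells it found the MDGA1 and PIK3R1 sites in 4 of 4 libraries and the GFI1 site in 0 of 4. The other 7 of the highest 10 lay nearest NOCT, TRHR, CA8, ESRRG, TMEM71, PRCP and ABLIM1.

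List length bears on all these counts, so each list was also reduced to its strongest 426 peaks, the length of the shortest. Then 133 sites were held by all 8 libraries, 32 by 4 of 4 HA-GATA2 and 0 of 4 HA-GATA2(T354M), and 15 by 4 of 4 HA-GATA2(T354M) and 0 of 4 HA-GATA2; none passed the adjusted Fisher test, with all 47 at an unadjusted p of 0.0286. A pair of HA-GATA2 lists shared 64.4 ± 3.09% of sites (SD over 6 pairs), a pair of HA-GATA2(T354M) lists 45.1 ± 0.994% (6 pairs), and a pair with 1 of each 40.5 ± 2.16% (16 pairs). Sharing within groups exceeded sharing between groups by 14.2 percentage points (exact permutation p = 0.0286 over 35 distinct splits; adjusted 0.0514). The pairs share libraries and are not independent.

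The 32 sites included those near MDGA1, PIK3R1 and GFI1 and a second site inside ZFPM2 (chr8:105568721-105569767) with folds of 32.8, 41.2, 45.6 and 14.7 in HA-GATA2 and 6.79 in HA-GATA2(T354M) replicate 4 alone. The 15 sites on the side of HA-GATA2(T354M) were led by a site inside GATA2 itself and included 3 sites at replication-dependent histone genes, which also held peaks in empty vector libraries, and sites nearest LTBP2, KIF13A, TEX14 and VAPA. All 15 held HA-GATA2 peaks in at least 3 libraries of the full lists.

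The sites of both proteins were compared with native GATA2 sites, those with an anti-GATA2 peak in at least 3 of 4 empty vector libraries. Of the sites of HA-GATA2 replicates 1 to 4, 76.1%, 70.5%, 64.6% and 86.4% were native sites of wild-type cells. For HA-GATA2(T354M) the shares were 96.4%, 93.9%, 94.6% and 94.6%, all above every HA-GATA2 library. Against the native sites of GATA2 low cells, the means were 38.7 ± 12.5% (SD, n = 4) with HA-GATA2 and 74.8 ± 3.79% (SD, n = 4) with HA-GATA2(T354M). Both differences had an exact permutation p of 0.0286 and an adjusted p of 0.0514. Without the library whose genotype label goes against its title, and with native sites in at least 2 of the other 3, the means were 45.4 ± 12.5% and 79.7 ± 3.59% (SD, n = 4 each; exact permutation p = 0.0286; adjusted 0.0514).

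With the lists of equal length the order turned. The shares of wild-type native sites were then 98.6%, 97.9%, 97.4% and 97.4% with HA-GATA2 and 96.4%, 94.4%, 97.2% and 96.5% with HA-GATA2(T354M), and the shares of native sites of GATA2 low cells were 85.7 ± 1.53% and 79.0 ± 1.60% (SD, n = 4 each), or 88.7 ± 1.31% and 83.6 ± 1.76% (SD, n = 4 each) without that library. The groups did not overlap in either measure (exact permutation p = 0.0286 each; adjusted 0.0514).

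**Figure D4:**
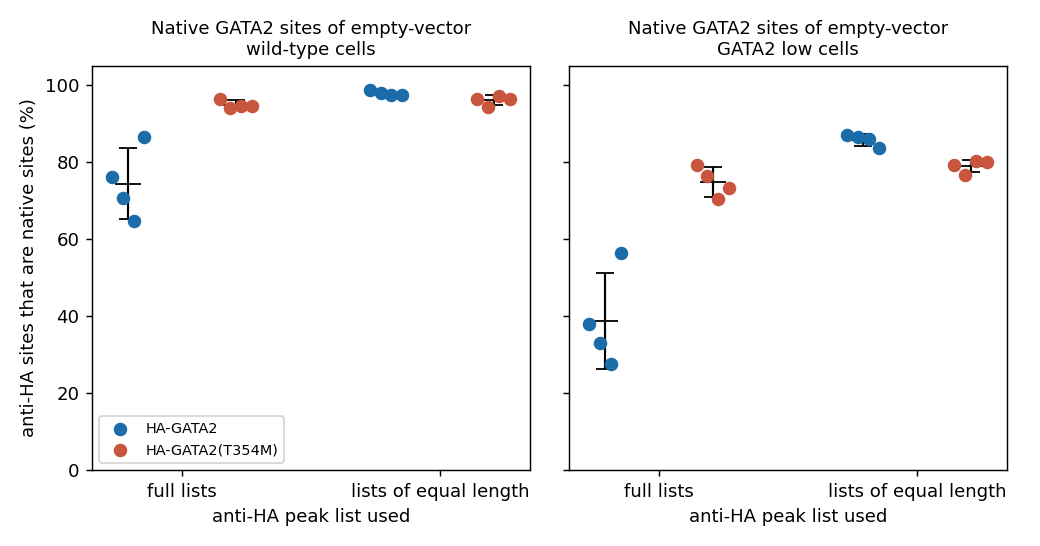
Percent of the anti-HA sites of each library that are native GATA2 sites of wild-type (left) or GATA2 low (right) empty vector cells, for the full lists and for lists of the strongest 426 peaks; points are libraries, bars the mean and SD of 4. The HA-GATA2(T354M) points are above the HA-GATA2 points with full lists (right panel 74.8% against 38.7%) and below them with equal lists (79.0% against 85.7%).

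The anti-GATA2 antibody, which also sees native GATA2, was read at the same sites. At the 942 sites with HA-GATA2 alone, anti-GATA2 peaks stood at 99.4 ± 0.873% of sites in HA-GATA2 cells, 81.8 ± 10.8% in HA-GATA2(T354M) cells, 49.8 ± 10.4% in GATA2 low empty vector cells and 84.7 ± 3.92% in wild-type cells (mean ± SD of 4 libraries each). The GATA2 low library with a wild-type label stood at 39.9%, below the other 3, whose mean was 53.1 ± 9.79% (SD, n = 3). At the 232 sites in all 8 libraries the means were 99.1%, 99.5%, 92.2% and 99.5%. The gap between the 2 classes of sites was widest in GATA2 low empty vector cells, and it was not tested. The 942 sites also ranked lower in the HA-GATA2 lists, at a median percentile of 61.5 against 94.3, so the gap cannot be told apart from one of rank. The anti-GATA2 lists were not matched in length or depth, which bears on shares between cell types. In HA-GATA2(T354M) cells, 612 of the 942 held an anti-GATA2 peak in 4 of 4 libraries and 65 in none.

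Peaks of HA-GATA2 were wider than those of HA-GATA2(T354M) in every library, and their position relative to genes depended on list length. The median peak width was 375, 375, 368 and 334 bp in HA-GATA2 replicates 1 to 4 and 286, 291.5, 297 and 280 bp in HA-GATA2(T354M), without overlap (exact permutation p = 0.0286; adjusted 0.0514). Summits within 1000 bp of an end of a protein-coding gene made up 9.37 ± 2.69% of peaks with HA-GATA2 and 11 ± 1.69% with HA-GATA2(T354M) (SD, n = 4 each; exact permutation p = 0.429; adjusted 0.482). Inside genes lay 49.2 ± 1.09% and 47.1 ± 1.97% (exact permutation p = 0.171; adjusted 0.220), and outside genes 41.5 ± 1.63% and 41.9 ± 2.56% (exact permutation p = 0.83; adjusted 0.83). The median distance to the nearest gene end was 22438 ± 2592 bp and 19017 ± 2450 bp (SD, n = 4 each; exact permutation p = 0.114; adjusted 0.171). These p-values do not show that the positions were the same. With lists of equal length the width was 693 ± 115 bp with HA-GATA2 and 311 ± 21.6 bp with HA-GATA2(T354M) (SD, n = 4 each), a difference of 382 bp against 74.4 bp with the full lists. Peaks outside genes were then 46.2% to 48.4% with HA-GATA2 and 42.5% to 44.8% with HA-GATA2(T354M), without overlap (exact permutation p = 0.0286; adjusted 0.0514). The difference at gene ends moved from -1.62 to -3.23 percentage points (exact permutation p = 0.114; adjusted 0.147) and that in distance from 3421 to 5652 bp (exact permutation p = 0.0857; adjusted 0.129). Among peaks with a −log10 q of at least 15, the share inside genes was higher with HA-GATA2 by 3.88 percentage points (exact permutation p = 0.0286, adjusted 0.0429). With lists of equal length that difference was -0.352 points (exact permutation p = 0.886, adjusted 0.996), so it did not hold across settings.

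At genes, a peak counted when its summit lay in the gene body or within 10 kb. Of 19974 protein-coding genes, 4033 (20.2%) had a peak in any of the 8 libraries. All 4 HA-GATA2 and none of the HA-GATA2(T354M) libraries held 563 genes (14% of the 4033; Fisher's exact test, adjusted p = 0.0346 over the 681 genes that can pass, of which they are 82.7%, and 0.205 over all 4033, where none passed and 563 had an unadjusted p of 0.0286). No gene had the reverse pattern, and 189 (4.69%) had a peak in all 8 libraries. Without HA-GATA2 replicate 4 the 563 became 1402. With lists of equal length 15 genes had HA-GATA2 alone and 22 HA-GATA2(T354M) alone. The larger count of genes thus changed sides, while that of sites did not (32 against 15), and a summit can count for several genes. No gene passed the adjusted Fisher test, with all 37 at an unadjusted p of 0.0286. Over all 13 lists 16 genes had HA-GATA2 alone, 48 without HA-GATA2 replicate 4 and 0 with lists of equal length, so every list count of HA-GATA2 alone below holds for the full lists. Gene lists are described by counts only, and their members were chosen with earlier results of these data known.

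Genes of the GATA factor complex and core targets held peaks in 15 of 19 cases (78.9%, against 20.2% of all protein-coding genes). 5 had a peak in all 8 libraries, namely GATA2, LYL1, HDC and the FOG genes ZFPM1 and ZFPM2, and 2 had HA-GATA2 peaks alone in 4 of 4 against 0 of 4, namely LMO2, the bridge of the complex, and MYB, a progenitor transcription factor. The 2 are 13.3% of the list's genes with a peak, near the 14% over all genes with a peak. The share in all 8 was 26.3%, against 0.946% of all protein-coding genes, and the median difference among genes with a peak was 2 libraries, as over all such genes. ZFPM1 had 13 sites, 3 of them in all 8 libraries, and the strongest (chr16:88491194-88492443) had folds of 36.6, 36.2, 42.3 and 24.5 with HA-GATA2 and 13.6, 12.4, 26.0 and 12.9 with HA-GATA2(T354M). At the LMO2 site 2441 bp outside the gene (chr11:33892765-33895082) HA-GATA2 had folds of 18, 12.7, 20.3 and 11.6, and no HA-GATA2(T354M) library had a peak. GATA1 and TAL1 had peaks in 4 HA-GATA2 and 1 HA-GATA2(T354M) library, RUNX1 in 4 and 2 and GFI1B in 4 and 2. LDB1 and ERG had peaks in 3 HA-GATA2 libraries and SPI1 and KIT in 1, with none in HA-GATA2(T354M).

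The GATA2 gene held a site of each kind. The site 2439 bp from the gene (chr3:128495069-128496370) had peaks in all 8 libraries, with folds of 18, 16.7, 27.3 and 13 with HA-GATA2 and 5.69, 7.03, 5.71 and 6.86 with HA-GATA2(T354M). The site inside the gene (chr3:128485735-128487032) had folds of 3.57, 3.76 and 4.84 in HA-GATA2 replicates 1 to 3, no peak in replicate 4, and folds of 4.62, 5.30, 5.61 and 5.30 in HA-GATA2(T354M). Its mean percentile was 62.0 in the HA-GATA2 lists that had it and 96.5 in the HA-GATA2(T354M) lists, where the site outside the gene stood at 28.4. The site inside the gene had anti-GATA2 peaks in 4 of 4 libraries of each cell type with a GATA2 vector, in 0 of 4 of GATA2 low empty vector cells and in 1 of 4 of wild-type cells. Both vectors carry GATA2 coding sequence, whose fragments cannot be told apart from native exons in peak lists, and their part in this site was not tested.

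Other transcription factors of blood formation had peaks at 18 of 31 genes (58.1%, against 20.2% of all protein-coding genes). HA-GATA2 alone was found at 2, and 1, CEBPE, a granulocyte factor, had a peak in all 8 (3.23%, against 0.946%). The 2 are 11.1% of the list's genes with a peak, near the 14% over all. At a site 148 bp from the start of KLF1, the erythroid activator (chr19:12885817-12888313), HA-GATA2 had folds of 13.1, 14.8, 17.3 and 7.21, and no HA-GATA2(T354M) library had a peak. The other gene with HA-GATA2 alone was STAT5A, which shares its site (chr17:42319639-42320477) with the neighbour STAT3, both of them transducers of cytokine signals. Of 30 genes of cytokine receptors and signalling, 17 had a peak (56.7%, against 20.2% of all protein-coding genes). None had a peak in all 8, against 0.946% of all protein-coding genes. HA-GATA2 alone was found at 3, namely STAT3, the kinase PIM1 and the Src family kinase LYN. The 3 are 17.6% of the list's genes with a peak, near the 14% over all.

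Genes of the red cell membrane and iron handling were the list with most members under HA-GATA2 alone, 7 of 35 (20%, against 2.82% of all protein-coding genes). They are 24.1% of its genes with a peak, against 14% over all. A peak in any library stood at 29 of 35 (82.9%, against 20.2%) and a peak in all 8 at 3 (8.57%, against 0.946%). The 7 were EPB41, ADD1 and CD44 of the membrane skeleton and surface, GYPB and RHAG of the blood groups, FTH1, the heavy chain of ferritin, and SLC25A37, the mitochondrial iron importer. At FTH1 (chr11:61966390-61967929) HA-GATA2 had folds of 10.3, 15, 19.4 and 8.07. The genes with all 8 were EPB42, TMCC2 and CA1, the red cell carbonic anhydrase. At CA1 the site 3710 bp from the gene (chr8:85323427-85325107) stood at a mean percentile of 98.2 in the HA-GATA2 lists and 95.1 in the HA-GATA2(T354M) lists.

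Globin and heme genes had a peak in 15 of 25 cases (60%, against 20.2% of all protein-coding genes). None had HA-GATA2 alone, against 14% of all genes with a peak, and 3 had a peak in all 8 (12%, against 0.946% of all protein-coding genes). Among the latter were FECH, the enzyme that inserts iron into heme, and ABCB10, a mitochondrial transporter. At FECH (chr18:57582964-57584240) the folds were 14.6, 16.3, 19.3 and 8.56 with HA-GATA2 and 5.29, 6.02, 7.24 and 7.61 with HA-GATA2(T354M), at mean percentiles of 96.8 and 79.3. ALAS2, the erythroid first step of heme synthesis, had peaks in 4 HA-GATA2 and 1 HA-GATA2(T354M) library, and UROS in 4 and 1. HBE1 and BLVRB had peaks in 3 HA-GATA2 libraries and in none with HA-GATA2(T354M). CPOX had 4 and 3 libraries with a peak within 10 kb, and SPTB of the membrane list 4 and 2, although their promoter sites held HA-GATA2 alone.

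Among mast cell, basophil and eosinophil genes, in which GATA2 acts, 10 of 27 had a peak (37.0%, against 20.2% of all protein-coding genes). HDC was in all 8 (3.7% of the list, against 0.946% of all protein-coding genes). IL1RL1, the IL-33 receptor, and PRG2, the eosinophil major basic protein, had HA-GATA2 alone. These 2 are 20% of the list's genes with a peak, against 14% over all. At IL1RL1 (chr2:102335538-102336419) the folds with HA-GATA2 were 19.3, 20.6, 24.0 and 11.8. No megakaryocyte, neutrophil and monocyte, lymphocyte, innate immune, housekeeping or unrelated tissue gene had HA-GATA2 alone in 4 of 4 or a peak in all 8. Over all protein-coding genes the shares were 2.82% and 0.946%, and lists of 25 to 28 genes are too short to tell apart from these. Peaks in any library stood at 3 of 26, 4 of 26, 3 of 25, 7 of 28, 6 of 26 and 2 of 26 of their genes. These are 11.5%, 15.4%, 12%, 25%, 23.1% and 7.69%, against 20.2% of all protein-coding genes.

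**Figure D5:**
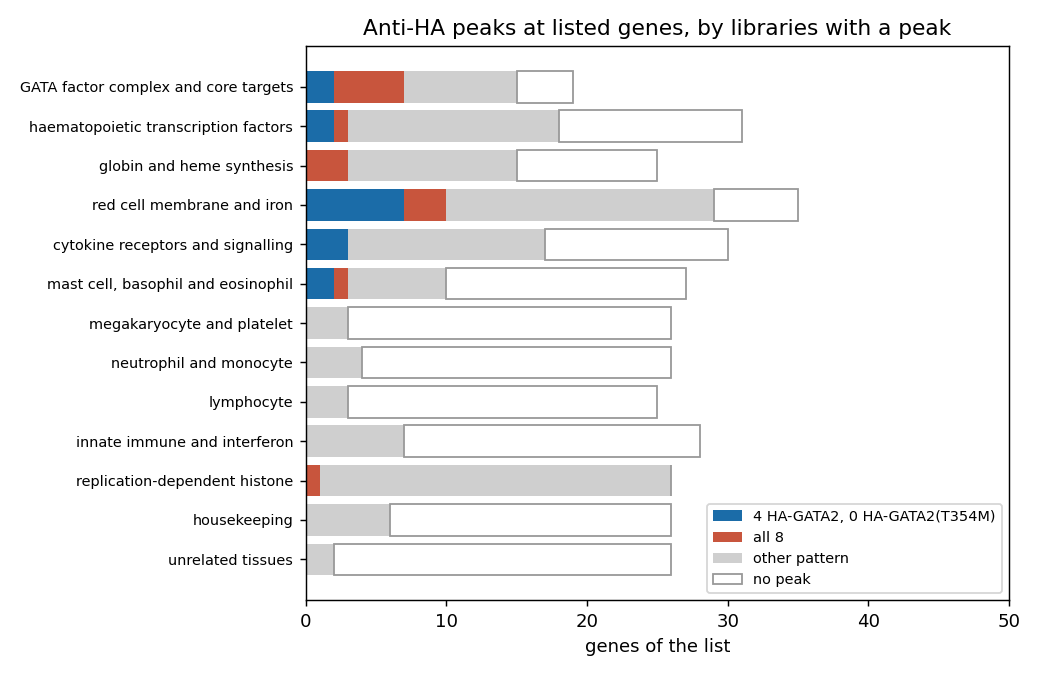
Genes of each list (horizontal axis, number of genes) by the libraries with an anti-HA peak in the body or within 10 kb: 4 of 4 HA-GATA2 and 0 of 4 HA-GATA2(T354M), all 8, another pattern, or no peak. The core GATA list has the most genes in all 8 (5) and the red cell membrane list the most with HA-GATA2 alone (7).

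Peaks of HA-GATA2(T354M) without HA-GATA2 were few. There were 31 such sites, 14 of them without an anti-GATA2 peak in any library of HA-GATA2(T354M) cells, and 45.2% lay at a gene end, against 13.9% of the 4925 sites with a peak in 1 to 3 HA-GATA2 and no HA-GATA2(T354M) libraries and 4.88% of the 942 sites in all 4. Of the 31, 25 held a peak in 1 library. The sites where HA-GATA2(T354M) led by at least 2 libraries numbered 7, nearest TSPAN32, CDCA4, CACNA1H (2 sites), PTMA, HNRNPA2B1 and PHPT1. The 2 sites in CACNA1H, a calcium channel gene, had folds of 10.5, 9.56, 5.62 and 10.3 in HA-GATA2(T354M) replicates 1 to 4 at chr16:1192045-1193582, where HA-GATA2 replicates 1 and 3 had 10.3 and 7.78, and 6.25, 10.2 and 5.28 in replicates 2 to 4 at chr16:1194080-1195358, where HA-GATA2 had none. Mean percentiles of the 7 sites in the HA-GATA2(T354M) lists ran from 18.6 to 44.0.

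All 26 replication-dependent histone genes had a peak in some library, against 20.2% of all protein-coding genes. A peak in all 8 stood at 1 (3.85%, against 0.946%), and none had HA-GATA2 alone, against 14% of all genes with a peak. HA-GATA2(T354M) had more libraries than HA-GATA2 at 6 of the 26, and at 57 of the 4033 protein-coding genes with a peak. The median difference of the list was still 1 library towards HA-GATA2, against 2 over all genes with a peak. A site can count for several neighbouring genes. Of the 30 sites at these genes, HA-GATA2(T354M) led at 3 and had no peak at 17. Empty vector anti-HA peaks stood at 8 sites, 4 of them among the 30 sites at these genes. The site nearest H2BC21 had a peak in 4 of 4 empty vector, 3 of 4 HA-GATA2 and 4 of 4 HA-GATA2(T354M) libraries. The site nearest GRAP (chr17:19063363-19063799) had one in 3 empty vector libraries and in all 8 others. The part of this background in the histone result was not tested. None of the 942 sites and 2 of the 232 sites in all 8 libraries had an empty vector peak.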

How the data were processed

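CUT&Tag peak lists of 4 HA-GATA2, 4 HA-GATA2(T354M) and 4 empty vector anti-HA libraries, and of 16 anti-GATA2 libraries, were read; groups and replicates came from the titles. Per the submitters' processing notes, reads were trimmed and aligned with tools that include cutadapt 3.3 and Bowtie2 2.2.5 on hg38, peak calling was by MACS2 2.2.7.1, and FastQC and deepTools 3.5.3 are also named, and settings are not known here. Each library has its own deposited narrowPeak list. A peak's deposited fold enrichment is a linear ratio of summit fragments to local background, the deposited p and q are −log10 values, and the deposited score, not used further, follows the q. These per-peak values are the authors' and rank peaks only within a list.

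Of 120964 peaks in 28 lists, 120509 on chromosomes 1 to 22 and X were kept and merged into 17277 sites (overlap of at least 1 bp). Coordinates are 1-based on hg38. The files give no read totals. Fragments and background were recovered from the fold and −log10 p of 99.95% to 100% of the peaks of each library, with a match within 0.03%, and the lowest background per list stands for depth. Percentiles rank peaks by −log10 q, and a site takes its strongest peak. Genes came from a RefSeq table (GRCh38.p14), and all 350 list entries matched; starts with strand are known for part of the genes, so gene ends were used for position.

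Library-level values were tested by exact two-sided permutation with Benjamini-Hochberg adjustment over 9 measures, sites and genes by Fisher's exact test. Scripts ran in Python 3.11.15 with scipy 1.17.1 and were tested on simulated data. Alternatives were a stricter −log10 q of 15, lists of equal length, peaks set to 150 bp on each side of the summit, other windows and other merging. Others were depth scaling, adjustment over every feature, the replicate block and leaving out each library. Leaving out empty vector sites or the anti-GATA2 library with conflicting labels was added later. The comparison, the 13 gene lists and the rules were chosen with earlier results of these data known. Text names core list genes with a peak, at most 4 genes per remaining list, by the size of the difference in libraries, up to 3 with all 4 HA-GATA2(T354M) libraries, and up to 10 sites per pattern; CPOX, SPTB, RHEX, ADD1, CD44, RHAG and the second ZFPM2 site were chosen after their values were seen. Some items the rules cover are not reported here.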

Additional observations from a re-analysis of the deposited data

Results flagged for a closer look

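HA-GATA2 replicate 4, the library with fewest HA-GATA2 peaks, lay apart from replicates 1 to 3 in 2 of the library-level measures. Its median peak width was 334 bp, against 375, 375 and 368 bp, and 43.9% of its peaks lay outside genes, against 40.8%, 40.8% and 40.4%. Of 26 groups of 4 values examined, these 2 were singled out because the gap to the nearest library took up nearly the whole range of the group, and chance singles out about 5% of groups.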

How the results depend on the processing

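With a −log10 q of at least 15, 6 measures passed at an adjusted p of 0.0429 (exact permutation): the ratio of peak numbers (9.32), the differences HA-GATA2 minus HA-GATA2(T354M) in percent of peaks inside genes (3.88), median width (100.5 bp) and percent of native sites of wild-type (-19.1) and GATA2 low cells (-39.2), and sharing within minus between groups (13.1 points). Each had an unadjusted p of 0.0286, the smallest possible, and all but the share inside genes had it in the main setting too. The adjusted p fell below 0.05 because the share inside genes joined them, not because the other differences had a smaller p. All 8 libraries then held 111 sites, 97.4% of the sites of every HA-GATA2(T354M) library and 9.85% of those of every HA-GATA2 library.

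With lists of equal length the differences inside genes (-0.35), outside genes (3.58) and in native sites of wild-type (1.72) and GATA2 low cells (6.73) turned in sign. There were 32 sites and 15 genes with HA-GATA2 alone, 15 sites and 22 genes with HA-GATA2(T354M) alone, and 0 of either passed Fisher's exact test with adjustment (47 sites and 37 genes at an unadjusted p of 0.0286). All 8 lists held 133 sites, 73.5% and 49.8% of the sites of every HA-GATA2(T354M) and every HA-GATA2 list. Median percentiles were 45.1 at sites with HA-GATA2 alone and 78.2 at sites in all 8, and anti-GATA2 peaks stood at 98.4% (HA-GATA2(T354M)), 73.4% (GATA2 low) and 96.9% (wild-type) of the former. Of the listed genes, 0 had HA-GATA2 alone, and RUNX1, UROS and H1-5 turned to a difference of -1 library. With peaks set to 150 bp on each side of the summit, anti-GATA2 peaks of HA-GATA2 cells stood at 98.5% of sites with HA-GATA2 alone. Adjustment over every feature left 0 sites and 0 genes called. The cause of these changes was not tested.

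The correlations of the deviations of same-numbered libraries were -0.03, 0.02, -0.06 and 0.12, and those of other pairs ran from -0.11 to 0.10. These values do not settle whether same-numbered libraries pair. With the replicate block the smallest p of 4 pairs is 0.125, so 0 sites and 0 genes can pass, and no other call changed.

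Leaving out each library in turn gave 947 to 2337 sites and 567 to 1402 genes with HA-GATA2 alone, of which 0 to 2337 and 0 to 1402 passed Fisher's exact test: all of them without an HA-GATA2 library, and 0 without a HA-GATA2(T354M) library. Sites with HA-GATA2(T354M) alone ran from 0 to 1 and listed genes with HA-GATA2 alone from 16 to 48. The 2337, the 1402 and the 48 came without HA-GATA2 replicate 4. The share of sites of every HA-GATA2(T354M) library held by every HA-GATA2 library ran from 93.7% to 99.6%, and the reverse share from 7.40% to 16.9%. Anti-GATA2 peaks at sites with HA-GATA2 alone ran from 70.2% to 83.1% (HA-GATA2(T354M)), 97.1% to 99.4% (HA-GATA2) and 78.0% to 85.8% (wild-type), and the difference outside genes from -1.56 to 0.48. The ratio of peak numbers ran from 5.84 to 8.58, with an adjusted p of 0.0514 to 0.0857 in exact permutation tests.

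Leaving out sites with an empty vector peak, chosen after the data were seen, changed no count by over 1.5 times. Leaving out the GATA2 low empty vector library with a wild-type label, also chosen then, gave a difference in native sites of GATA2 low cells of -34.2 points (2 of 3 libraries) or -36.1 points (3 of 3). Absence of a peak means not detected at this depth, since a peak list has a threshold and no counts outside peaks, and differences in tagged protein amount cannot be told apart from differences in binding.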

Other observations

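A few promoters of genes outside the lists also held HA-GATA2 peak summits in all 4 libraries. The site at the promoter of TNFRSF19, a receptor of the tumour necrosis factor family (chr13:23569622-23571133), had folds of 17.3, 17.7, 20.2 and 10.3 with HA-GATA2 and of 4.69, 7.16 and 5.95 in HA-GATA2(T354M) replicates 2 to 4. The site at the promoter of HBS1L (chr6:135054424-135055582), the neighbour of MYB, had folds of 12.9, 10.7, 14.4 and 8.80 with HA-GATA2 and of 6.49 in HA-GATA2(T354M) replicate 3 alone. The sites at the promoters of BCAT1, which encodes an enzyme of branched-chain amino acid metabolism, and CAT, which encodes catalase, held HA-GATA2 alone, at mean percentiles of 33.6 and 37.1.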
